A study of Mus musculus with 36 samples.

Results

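The Slc25 genes encode the mitochondrial carrier family, and they were examined here as a gene family across the differentiation of brown pre-adipocytes. Members were the protein-coding genes of the GENCODE M21 annotation whose symbol starts with Slc25a. There were 47 such genes among 22028 protein-coding genes and 55536 genes in all, and they lay on 19 chromosomes. Of these, 43 had enough counts to be tested, and the other 4 (Slc25a21, Slc25a31, Slc25a41 and Slc25a43) are given by their counts.

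The cells were mouse brown pre-adipocyte lines made from 2 clones, numbered 48 and 66, in which both copies of Rxra had been disrupted by Cas9. A pBabe Hygro retrovirus then returned mouse Rxra to every line, either the wild-type form (Rxra WT) or a form with alanine in place of serine at residue 22 (Rxra SA), so that no line kept a working endogenous Rxra and each genotype rested on 2 clones. All lines were grown to confluence with insulin and triiodothyronine (day 0), received dexamethasone, isobutylmethylxanthine and indomethacin as well for the first 2 days (day 2), and were then kept in the medium without these 3 agents until day 6. Total RNA was sequenced in 36 libraries, 3 for each clone, genotype and day. The libraries of clone 48 made up pool 1 and those of clone 66 pool 2, so clone and pool cannot be told apart. The series calls the 3 libraries of a line technical replicates while the study's methods describe independent ones, and p-values here measure the spread between these libraries.

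Mitochondrial carriers are proteins of the inner mitochondrial membrane that exchange metabolites, nucleotides and cofactors between the cytosol and the matrix. They are made in the cytosol, guided through the outer membrane and inserted by a dedicated import machinery. In brown adipocytes the best known relative is uncoupling protein 1 (Ucp1), which has a symbol of its own and lets protons back into the matrix to release heat. Other carriers supply ADP and phosphate for ATP synthesis, bring in acylcarnitines for fatty acid oxidation, or export citrate, from which cytosolic acetyl-CoA for fatty acid synthesis is made.

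Total counts per library ranged from 11351078 to 24349263, with a median of 18338726. Levels are given as CPM (counts scaled to the library total) per kilobase of exon, with TMM factors between libraries. Differences are log2 fold changes from edgeR's quasi-likelihood test. Their standard error was derived as the absolute log2 fold change over the square root of the test's F statistic, and is approximate. A gene was called at a Benjamini-Hochberg adjusted p under 0.05 over the 16723 genes tested. Rxra, which was disrupted and returned in all lines, ranged from 92.6 to 712 CPM over the 36 libraries. It held 92.6 to 233 at day 0, 399.5 to 712 at day 2 and 182 to 347 at day 6. At day 0 clone 48 held 170.4 to 233 and clone 66 92.6 to 170.1. The part of this level in the comparisons below was not tested. The summed level of 9 brown adipocyte markers had medians of 43.6, 1108 and 2709 at days 0, 2 and 6, and that of 5 pre-adipocyte markers was 98.2, 11.6 and 15.5. The 9 were Adipoq, Fabp4, Plin1, Pparg, Cebpa, Cidea, Ucp1, Dio2 and Prdm16, so the list held general adipogenic genes as well. Only 6 of the 9 had enough counts to be tested, and all 6 were higher at days 2 and 6 than at day 0 (35.8% and 32.9% of all genes tested). Such a sum is set mainly by its most abundant genes. Ucp1 itself stayed at or near 0, with at most 1 count in any library at day 0, 2 at day 2 and 5 at day 6. The median summed level of 3 immune markers was 5.46, 3.03 and 6.29, with Ptprc and Adgre1 both at 0 counts at day 6, and the sums for endothelial, muscle and epithelial markers (3 genes each) did not exceed 0.308 in any library. In these bulk samples, fewer cells of a type and less RNA per cell cannot be told apart.

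The promoters of the members with the largest changes are shown first, since the results below return to them. RefSeq promoter windows of 300 bases (250 before and 50 after the start, build GRCm38.p6) were found for 36 of the 47 genes, with 46 starts. Slc25a34 (ENSMUSG00000040740.7), the member with the largest increase, has its window on the minus strand at chr4:141623785-141624084, Slc25a10 (ENSMUSG00000025792.9) on the plus strand at chr11:120491587-120491886, and Slc25a24 (ENSMUSG00000040322.10), the most abundant member that fell strongly, on the plus strand at chr3:109122899-109123198. Capitals mark CpG dinucleotides.
Slc25a34: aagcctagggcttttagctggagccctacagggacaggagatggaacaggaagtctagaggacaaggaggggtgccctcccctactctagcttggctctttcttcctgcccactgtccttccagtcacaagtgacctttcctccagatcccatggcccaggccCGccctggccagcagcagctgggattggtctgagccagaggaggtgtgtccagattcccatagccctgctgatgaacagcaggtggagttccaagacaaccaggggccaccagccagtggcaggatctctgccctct
Slc25a10: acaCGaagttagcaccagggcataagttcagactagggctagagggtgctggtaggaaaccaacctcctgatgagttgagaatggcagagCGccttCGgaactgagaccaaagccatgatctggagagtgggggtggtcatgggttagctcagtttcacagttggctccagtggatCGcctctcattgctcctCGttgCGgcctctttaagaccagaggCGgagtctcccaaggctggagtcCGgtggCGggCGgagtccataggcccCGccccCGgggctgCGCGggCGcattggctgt
Slc25a24: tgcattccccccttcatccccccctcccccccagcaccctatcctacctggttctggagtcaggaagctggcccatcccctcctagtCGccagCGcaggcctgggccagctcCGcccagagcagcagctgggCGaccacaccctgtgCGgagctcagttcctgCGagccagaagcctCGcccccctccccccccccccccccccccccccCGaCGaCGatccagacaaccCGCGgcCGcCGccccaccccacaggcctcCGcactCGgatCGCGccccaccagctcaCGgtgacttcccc
The Slc25a34 window held 1 CpG, against 15 in that of Slc25a10 and 19 in that of Slc25a24. Over the 46 member windows the median was 15, and over the 13656 windows of tested genes it was 20. Windows with at most 1 CpG made up 2.87% of the latter.

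The windows were searched for 4 motifs on both strands. The direct repeat of the nuclear receptor half-site with a gap of 1 base, AGGTCANAGGTCA, was in 0 of the 46 member windows and in 0.04% of all 32851 windows. The oestrogen-related receptor element TCAAGGTCA was in 0 member windows and in 0.423% of all windows. The palindrome of nuclear respiratory factor 1, GCGCA and GCGC with any 1 base between them, was in 2 (Slc25a3 and Slc25a31), a share of 4.35% against 4.60% of all windows and 9.38% of those of tested genes. The cyclic AMP response element TGACGTCA was in 2 (Slc25a25 and Slc25a36), also 4.35%, against 1.79% of all windows and 2.92% of those of tested genes. The Slc25a25 match lies in the window of 1 of the gene's 3 RefSeq starts, on the minus strand at chr2:32424017-32424316, and is in capitals in the sequence that follows. Which of the 3 starts these cells used was not tested.
Slc25a25: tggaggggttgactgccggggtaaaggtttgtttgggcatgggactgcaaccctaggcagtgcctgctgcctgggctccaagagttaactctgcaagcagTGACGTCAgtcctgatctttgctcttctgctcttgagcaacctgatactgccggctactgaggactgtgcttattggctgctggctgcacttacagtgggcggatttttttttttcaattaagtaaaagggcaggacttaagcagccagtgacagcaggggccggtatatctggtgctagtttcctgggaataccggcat

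The first comparison asked how carrier transcripts changed as the cells differentiated, with genotypes averaged. From day 0 to day 2, 29 of the 43 tested members rose and 12 fell, with a median log2 fold change of 0.65. Counts against day 0 include Slc25a34 and Slc25a54, which passed the filter on low counts only through the days on which they were high. Among all genes tested 35.8% were called higher and 37.5% lower, and their median was -0.02. From day 0 to day 6, 24 members rose and 10 fell (median 0.39), against 32.9% and 35.4% of all genes, whose median was -0.03. Between day 2 and day 6, 13 rose and 20 fell (median -0.14), against 31.9% higher and 30.1% lower among all genes. Libraries of day 2 lay above all libraries of day 0 for 18 members and below for 3, where 13.6% and 14.2% of all genes did so. For day 6 against day 0 these counts were 16 and 6 (12.2% and 11.0% of all genes), and for day 6 against day 2 they were 2 and 5 (9.56% and 7.56%). Scaling by library size alone moved the median of all genes to -0.27 for day 2 and -0.22 for day 6 against day 0. The members' counts were then 26 higher and 13 lower at day 2 and 24 higher and 12 lower at day 6, while the calls over all genes shifted to 25.1% higher and 49.4% lower at day 2 and 24.8% and 46.4% at day 6.

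The commonest course was a rise to day 2 followed by a fall to day 6, with both steps called in 17 of the 43 members (39.5%) and in 20% of all genes tested. A further 9 members rose in both steps (Slc25a1, Slc25a2, Slc25a10, Slc25a16, Slc25a22, Slc25a23, Slc25a29, Slc25a34 and Slc25a35), against 6.27% of all genes, and 3 rose to day 2 with no call after it, Slc25a28 and Slc25a44 among them (9.55% of all genes). These courses average the clones, and the second step of Slc25a34 was unlike in them, as given below. A fall in both steps was found for 3 members (Slc25a12, Slc25a30 and Slc25a37), against 4.2% of all genes, and a fall followed by a rise for 4 (Slc25a24, Slc25a36, Slc25a48 and Slc25a53), against 18.9%. Another 5 fell to day 2 with no call after it (Slc25a13, Slc25a14, Slc25a27, Slc25a45 and Slc25a54), against 14.4% of all genes. In 2 members, the mitochondrial glutamate carrier Slc25a18 and the glycine carrier Slc25a38, neither step was called, as in 14.1% of all genes.

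**Figure D1:**
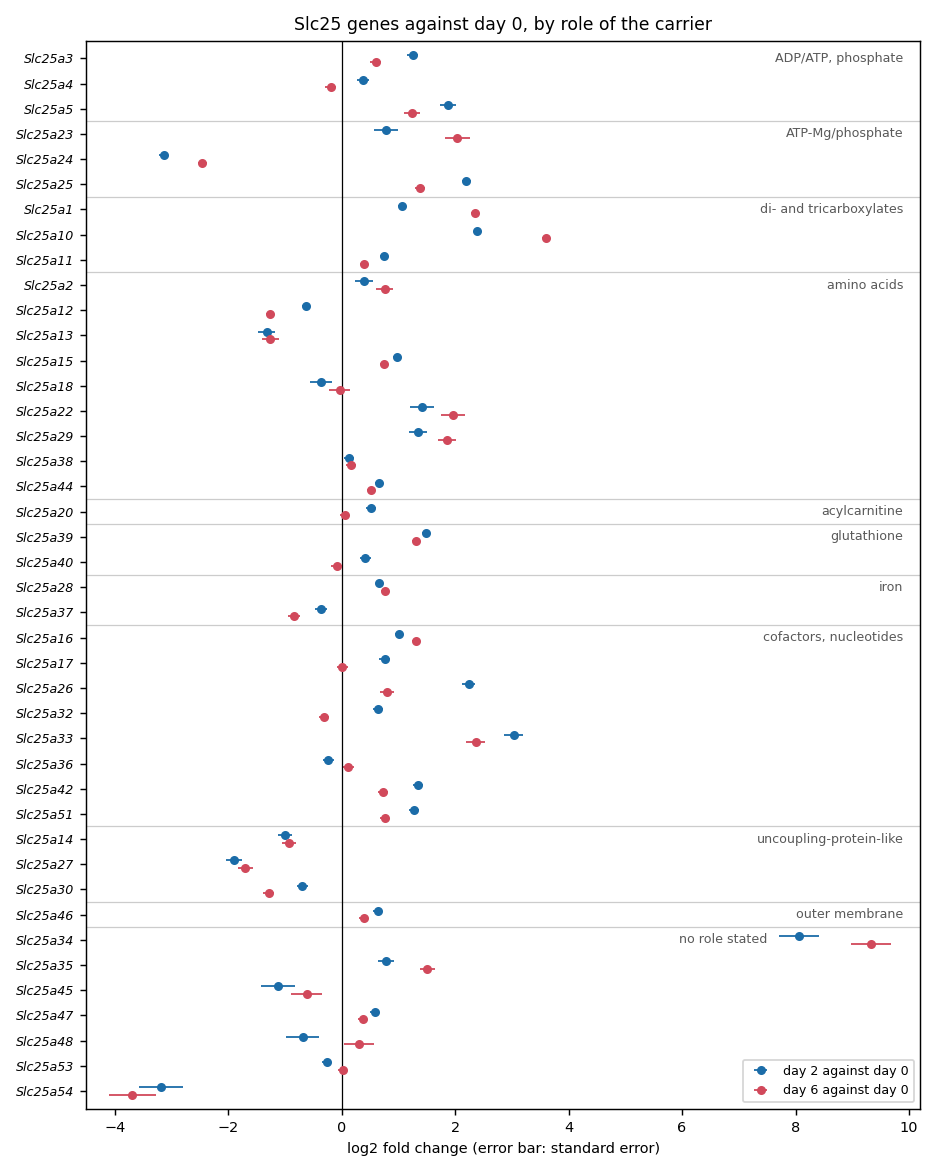
Log2 fold change of 42 tested Slc25 genes at day 2 (blue) and day 6 (red) against day 0, grouped by the role of the carrier, with standard errors as bars. Slc25a10 lies at 2.39 and 3.60, Slc25a24 at -3.14 and -2.46, and the 3 uncoupling-protein-like genes lie left of 0 on both days, while the value of Slc25a34 is a fitted one set by very low counts at day 0.

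All 3 tested carriers of di- and tricarboxylates rose by day 2, and 2 of them rose again by day 6 while 1 fell. Of all genes tested, 35.8% rose by day 2, and 31.9% rose and 30.1% fell from day 2 to day 6. The citrate carrier Slc25a1 (ENSMUSG00000003528.15, chr16:17925223-17928219) had levels of 44.0 to 59.1 CPM per kb at day 0 (median 46.7, n = 12), 85.9 to 124 at day 2 (median 99.9) and 211 to 299 at day 6 (median 254). None of its libraries of one day overlapped those of another day. Its log2 fold change was 1.06 ± 0.068 (SE) at day 2 (adjusted p = 8.28e-16), 2.34 ± 0.071 at day 6 (4.88e-25) and 1.28 ± 0.069 from day 2 to day 6 (1.21e-17). The dicarboxylate carrier Slc25a10 (chr11:120491840-120499187), which exchanges malate or succinate for phosphate, went from 14.9 to 20.4 at day 0 (median 16.9) to 67.0 to 115 at day 2 (median 90.3) and 166 to 259 at day 6 (median 205). Here too the 3 days were fully separate. The rise was 5.25-fold by day 2 (log2 2.39 ± 0.069, adjusted p = 1.2e-25) and 12.1-fold by day 6 (3.60 ± 0.072, 4.22e-30), and the step from day 2 to day 6 was 1.21 ± 0.066 (2.07e-17). The level of Slc25a1 was 2.595 to 3.31 times that of Slc25a10 in the day 0 libraries and 1.00 to 1.39 times in those of day 6. The oxoglutarate carrier Slc25a11, part of the malate-aspartate shuttle, moved less, from a median of 72.3 at day 0 to 120 at day 2 and 93.3 at day 6 (log2 0.74 ± 0.063 and 0.39 ± 0.063 against day 0, adjusted p = 1.03e-12 and 1.44e-06, and -0.35 ± 0.063 from day 2 to day 6, 9e-06). The oxoadipate carrier Slc25a21 had at most 7 counts in any library and was not tested.

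Among enzymes that work beside these carriers, a list of 10 genes, 6 rose and 0 fell by day 2, and 5 rose and 1 fell by day 6. Of all genes tested, 35.8% rose and 37.5% fell by day 2, and 32.9% and 35.4% did so by day 6. Citrate synthase (Cs), which makes the citrate in the matrix, rose by 1.62 ± 0.117 at day 2 (adjusted p = 1.71e-14) and 2.05 ± 0.119 at day 6 (5.06e-17) on the log2 scale. ATP citrate lyase (Acly), which cleaves exported citrate, was not called on either day, with log2 values of -0.18 ± 0.089 (adjusted p = 0.0742) and -0.04 ± 0.089 (0.693).

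**Figure D2:**
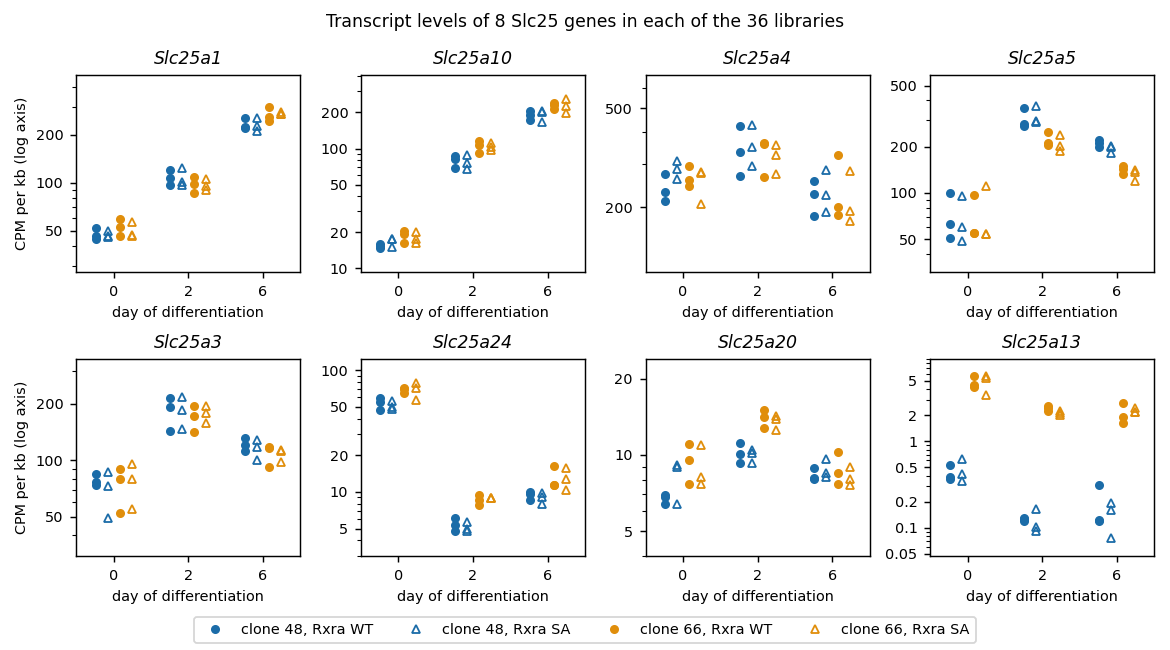
Level of 8 Slc25 genes in each of the 36 libraries (CPM per kb, log axis) by day of differentiation, with clone 48 in blue, clone 66 in orange, Rxra WT as filled circles and Rxra SA as open triangles. Slc25a1 and Slc25a10 climb without overlap between days, Slc25a24 drops from 47.1 to 78.0 at day 0 to 4.75 to 9.40 at day 2, and Slc25a13 separates the clones on every day.

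The 3 tested carriers that exchange ADP, ATP and phosphate had their highest median levels at day 2. The ADP/ATP carrier Slc25a4 (chr8:46206797-46211284) was the most abundant member at day 0, with levels of 206 to 308 CPM per kb (median 267). It reached 265 to 427 at day 2 (median 342) and 176 to 324 at day 6 (median 212), and the 3 days overlapped. In the libraries numbered replicate 3 it held 243 to 277 at day 0 and 265 to 294 at day 2. At day 6 it held 255 to 324 in replicate 1, 193 to 226 in replicate 2 and 176 to 191 in replicate 3, a split that was not tested. Its rise to day 2 was 0.37 ± 0.103 (adjusted p = 0.00159) and its log2 fold change from day 2 to day 6 was -0.57 ± 0.103 (1.21e-05). Under scaling by library size alone the former was 0.11 and was not called. At day 6 against day 0 its log2 fold change was -0.20 ± 0.103 (adjusted p = 0.0899). This last value was called under 5 of the alternative settings, between -0.22 and -0.38.

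The other ADP/ATP carrier of these cells, Slc25a5 (chrX:36795651-36798807), went from 48.9 to 110 at day 0 (median 57.5) to 188 to 369 at day 2 (median 261) and 119 to 223 at day 6 (median 166). Every library of days 2 and 6 lay above all libraries of day 0. The increase was 1.87 ± 0.136 at day 2 (adjusted p = 1.84e-14) and 1.24 ± 0.134 at day 6 (4.48e-10), with a difference of -0.64 ± 0.132 between them (8.28e-05). At day 0 the 4 libraries numbered replicate 3 held 94.8 to 110 and the 8 others 48.9 to 62.9, in both clones and both genotypes. The part that replicate number plays in this level was not tested. The level of Slc25a4 was 2.51 to 5.84 times that of Slc25a5 at day 0 (median 4.02), 0.9501 to 1.71 times at day 2 (1.27) and 0.931 to 2.26 times at day 6 (1.37). Transcripts near-identical to Slc25a5 exist in the annotation (Gm5529 and Gm5560), and read pairs that matched several places had not been counted.

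The phosphate carrier Slc25a3 (chr10:91116574-91124059), which supplies phosphate to ATP synthase, followed the same course, with medians of 78.2, 182 and 115.5. Its lowest library of day 2 (141) lay above the highest of day 0 (95.7), while days 0 and 6 overlapped. It rose by 1.25 ± 0.101 at day 2 (adjusted p = 3.11e-13) and fell by 0.65 ± 0.10 afterwards (7.78e-07), which left it 0.60 ± 0.10 above day 0 (2.69e-06). Slc25a31, the ADP/ATP carrier of male germ cells, had 8, 3 and 1 counts over the 12 libraries of days 0, 2 and 6.

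The ATP-Mg/phosphate carriers, which load the matrix with adenine nucleotides in response to calcium, did not move together. Slc25a24 (chr3:109123149-109168457) fell from 47.1 to 78.0 at day 0 (median 57.7) to 4.75 to 9.40 at day 2 (median 6.99) and stood at 7.94 to 16.3 at day 6 (median 10.22). The lowest library of day 0 was thus above the highest of either later day. The fall was 8.82-fold at day 2 (log2 -3.14 ± 0.082, adjusted p = 1.1e-26) and 5.50-fold at day 6 (-2.46 ± 0.080, 2.95e-24), and the recovery from day 2 to day 6 was 0.68 ± 0.077 (1.85e-09). Its paralogue Slc25a25 moved the other way, with medians of 3.56, 16.2 and 9.31 (log2 2.20 ± 0.084 at day 2, adjusted p = 3.27e-22, and 1.38 ± 0.082 at day 6, 9.84e-17), and fell by 0.82 ± 0.081 from day 2 to day 6 (7.74e-11). Slc25a23 was low throughout, with medians of 0.723, 1.18 and 2.69, and rose by 0.78 ± 0.213 at day 2 (0.00149), 2.04 ± 0.216 at day 6 (2.71e-10) and 1.26 ± 0.210 in the second step (3.13e-06). Its 4 libraries of replicate 3 at day 6 held 3.98 to 4.67 and the other 8 held 1.31 to 3.56. Slc25a41 had at most 14 counts in any library and was not tested.

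The carnitine/acylcarnitine carrier Slc25a20 brings long-chain acyl groups into the matrix for oxidation. It held 6.39 to 11.1 CPM per kb at day 0 (median 7.93), 9.30 to 15.0 at day 2 (median 11.8) and 7.63 to 10.24 at day 6 (median 8.32), and its days overlapped. It rose by 0.51 ± 0.083 at day 2 (adjusted p = 1.27e-06), fell by 0.46 ± 0.083 from day 2 to day 6 (1.04e-05), and at day 6 differed from day 0 by 0.05 ± 0.083 (0.6), an interval of -0.11 to 0.21. Its level relative to the citrate carrier Slc25a1 had medians of 0.166, 0.117 and 0.0330 on the 3 days, and the day 6 ratios (0.0274 to 0.0459) lay below all earlier ones (0.0844 to 0.234). Of its enzymatic partners, Cpt2 rose by 2.04 ± 0.094 (adjusted p = 6.87e-20) and 1.37 ± 0.092 (2.87e-15) on the 2 later days. Cpt1a was at -0.14 ± 0.112 at day 2 (0.26) and fell by 1.48 ± 0.114 at day 6 (1.16e-13).

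Amino acid carriers changed in both directions. Of 9 members, 5 rose and 2 fell on each later day against day 0. Over all genes tested, 35.8% rose and 37.5% fell at day 2, and 32.9% and 35.4% at day 6. The rising ones were the ornithine carriers Slc25a15 and Slc25a2, the glutamate carrier Slc25a22, the basic amino acid carrier Slc25a29 and the branched-chain amino acid carrier Slc25a44, with log2 values at day 6 from 0.51 (Slc25a44) to 1.95 (Slc25a22). Slc25a22 went from a median of 1.30 to 3.60 and 4.97 CPM per kb, and Slc25a29 from 1.11 to 2.85 and 3.75. At day 6 Slc25a22 held 2.373 to 3.334 in replicate 1, 3.73 to 6.38 in replicate 2 and 7.093 to 9.041 in replicate 3. Its lowest library of day 6 lay just below its highest of day 0 (2.375). The falling pair were the aspartate/glutamate carriers of the malate-aspartate shuttle. Slc25a12 dropped from 12.7 to 16.3 at day 0 (median 14.0) to 7.07 to 10.3 at day 2 (median 9.39) and 4.33 to 7.69 at day 6 (median 5.63), so that day 0 overlapped neither later day (log2 -0.63 ± 0.072, adjusted p = 1.53e-09, and -1.27 ± 0.073, 3.85e-17). Slc25a13 fell by 1.32 ± 0.148 at day 2 (8.23e-10) and 1.26 ± 0.148 at day 6 (2.91e-09), at levels that depended on the clone and are given with the clones. Slc25a2 was low, with 8 to 52 counts per library, and its call at day 2 was lost in 5 of the alternative settings.

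Carriers of cofactors and nucleotides made up the group with the most members that rose by day 2, with 8 of 9 higher and 1 lower (median log2 fold change 1.27). By day 6, 6 were higher than at day 0 and 1 was lower (median 0.76). Over all genes tested, 35.8% were higher and 37.5% lower at day 2, and 32.9% and 35.4% at day 6. The pyrimidine nucleotide carrier Slc25a33 had the largest change of these, from 2.02 to 4.87 CPM per kb at day 0 (median 3.10) to 16.2 to 41.9 at day 2 (median 23.4) and 9.68 to 26.7 at day 6 (median 16.0). Both later days lay above day 0 in every library (log2 3.03 ± 0.166, adjusted p = 9.56e-18, and 2.36 ± 0.163, 6.07e-15), and the fall from day 2 to day 6 was 0.67 ± 0.152 (0.000252). In Slc25a33, 14.9% of the exonic bases are shared with Gm13068, and the counting had not used the strand. The S-adenosylmethionine carrier Slc25a26, which provides the methyl donor of the matrix, rose from a median of 1.46 to 7.34 (2.24 ± 0.118, 3.16e-18) and fell back to 2.81, the largest decrease of a member from day 2 to day 6 (-1.44 ± 0.115, 4.37e-13).

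The remaining carriers of this group moved less. The NAD carrier Slc25a51 had medians of 11.9, 27.2 and 20.4, the coenzyme A carrier Slc25a42 1.33, 3.22 and 2.09, and Slc25a16 14.2, 29.6 and 34.9 CPM per kb. All 3 were called higher on both later days. The folate carrier Slc25a32 and the peroxisomal carrier Slc25a17 rose to day 2 and then fell by 0.96 ± 0.086 (adjusted p = 9.48e-12) and 0.74 ± 0.104 (1.35e-07), and Slc25a32 ended 0.32 ± 0.086 below day 0 (0.00156). Slc25a36, the pyrimidine nucleotide carrier related to Slc25a33, fell by 0.24 ± 0.098 at day 2 (0.0301), a call lost in 3 of the alternative settings, and was at 0.12 ± 0.098 at day 6 (0.289).

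All 3 genes related to the uncoupling proteins fell on both later days, as did 37.5% of all genes tested at day 2 and 35.4% at day 6. Slc25a27 had 2.00 to 4.21 CPM per kb at day 0 (median 3.21), 0.579 to 1.39 at day 2 (median 0.814) and 0.620 to 1.53 at day 6 (median 0.887), with day 0 above both later days in every library. Its log2 fold changes against day 0 were -1.90 ± 0.140 (adjusted p = 2.45e-14) and -1.70 ± 0.138 (4.16e-13). Slc25a30 fell in both steps, from a median of 11.0 to 7.34 and 4.91 (log2 -0.69 ± 0.101, 2.03e-07, and -1.29 ± 0.102, 2.32e-13). For Slc25a14 the values were -0.996 ± 0.12 (4.18e-09) and -0.93 ± 0.119 (2.02e-08), from a median of 4.78 to 2.25 and 2.40. Of 4 tested family members with other symbols, 2 rose and 1 fell by day 2 (35.8% and 37.5% of all genes). At day 6, 3 were higher and 1 lower than at day 0 (32.9% and 35.4%). Ucp2 rose by 2.16 ± 0.187 at day 2 (1.87e-12) and was 0.58 ± 0.181 above day 0 at day 6 (0.00497), whereas Ucp3 was at -0.27 ± 0.313 at day 2 (0.438) and rose by 3.15 ± 0.224 at day 6 (1.32e-14). Ucp1 was too low to be tested.

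Of the mitochondrial glutathione carriers, Slc25a39 rose from a median of 42.0 to 126 at day 2 and 104 at day 6 (log2 1.48 ± 0.067, adjusted p = 4.7e-20, and 1.31 ± 0.067, 1.43e-18). Slc25a40 stood at 4.59, 6.14 and 4.17 (0.42 ± 0.092, 0.000131, and -0.09 ± 0.092, 0.396). The iron importers of the matrix went in opposite directions, with mitoferrin 2 (Slc25a28) higher by 0.66 ± 0.058 (2.64e-12) and 0.76 ± 0.058 (1.04e-13), and mitoferrin 1 (Slc25a37) at -0.37 ± 0.102 (0.00159) and -0.84 ± 0.103 (6.8e-09) at days 2 and 6. The outer membrane member Slc25a46, which takes part in mitochondrial dynamics, rose by 0.63 ± 0.075 (2.54e-09) and 0.39 ± 0.074 (2.45e-05).

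Slc25a34, a carrier without a role given here, had the largest change of any member. At day 0 it had 0 to 3 counts per library, at day 2 it had 213 to 599 and at day 6 it had 513 to 1360. Levels were 4.10 to 15.5 CPM per kb at day 2 (median 7.03) and 10.9 to 27.6 at day 6 (median 18.1). Over the 12 libraries of a day, 18 counts at day 0 compared with 4415 at day 2 and 11338 at day 6, ratios of 238 (95% interval 151 to 402) and 596 (377 to 1006) per total count. These exact intervals cover counting error only. The fitted log2 fold changes of 8.06 ± 0.358 and 9.33 ± 0.357 depend on the prior count. The gene passed the filter on low counts only through days 2 and 6, so p-values against day 0 are not given for it. The step from day 2 to day 6, 1.27 ± 0.216 (adjusted p = 4.79e-06), does not rest on day 0 but averages 2 unlike clones. Clone 48 held 8.51 to 15.5 at day 2 and 10.9 to 17.2 at day 6, which overlap. Clone 66 held 4.10 to 5.56 and 19.1 to 27.6.

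The other members without a stated role were mostly low. Slc25a35 rose on both days (0.77 ± 0.141 and 1.51 ± 0.135, adjusted p = 9.27e-06 and 5.26e-12) with 8 to 67 counts per library, but 31.3% of its exonic bases are shared with Rangrf. Slc25a54 had 118 counts in all at day 0 against 10 at day 2 and 7 at day 6, so that day 0 was 12.2 times (95% exact interval 6.38 to 26.01) and 17.8 times (8.38 to 45.3) the later days. It passed the filter on low counts only through day 0, so its calls against that day are no separate evidence. Slc25a45 never exceeded 22 counts, and its call at day 6 (log2 -0.62 ± 0.271, adjusted p = 0.0427) was lost in 8 of the alternative settings. Slc25a43 had 0 counts in all 36 libraries, which allows at most 4.54e-07% of all counts, although its neighbour Slc25a5 lies 18448 bases away on the X chromosome.

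The make-up of the family changed with its total. The summed level of the 47 members had a median of 874 CPM per kb at day 0 (753 to 979), 1517 at day 2 (1476 to 1879) and 1493 at day 6 (1427 to 1676), with day 0 below both later days in every library. Slc25a4 supplied a median of 29.8% of the sum at day 0, 21.4% at day 2 and 14.3% at day 6. Slc25a1 supplied 5.75%, 6.45% and 17.1%, and Slc25a10 1.99%, 5.71% and 13.6%. The share of Slc25a24 went from 7.03% to 0.461% and 0.680%. Slc25a1 had the highest median of all members at day 6, where Slc25a4 had led on the earlier days. This ranking and the shares depend on the annotated exon length. In median counts per library, Slc25a4 was above Slc25a3 at day 0 (12650 and 8935) and below it at day 2 (13560 and 17370). At day 6 Slc25a1 had 9724 counts, Slc25a3 11640 and Slc25a10 12830. Levels over 100 CPM per kb were reached by 1 member at day 0, 5 at day 2 and 6 at day 6, counted by their medians, and levels of 1 or less by 12, 10 and 11.

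**Figure D3:**
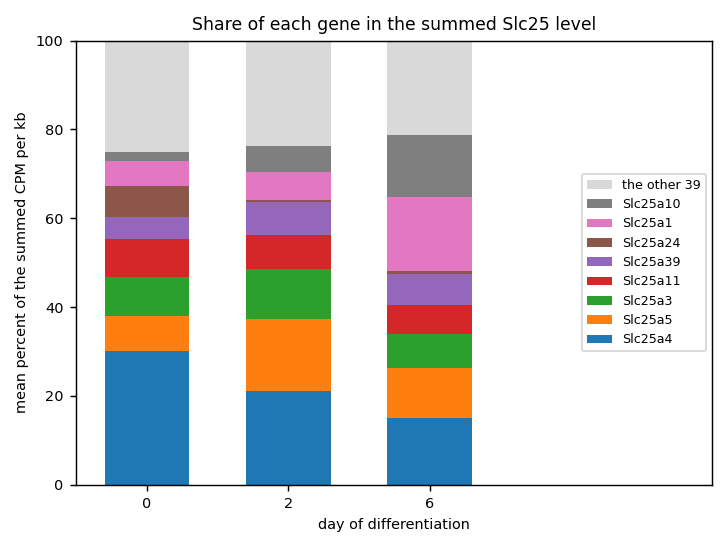
Mean share of the summed Slc25 level (percent of summed CPM per kb over the 12 libraries of a day) for 8 members and the other 39 together. The share of Slc25a4 shrinks from day 0 to day 6 while Slc25a1 and Slc25a10 together widen, and Slc25a24 is visible at day 0 and thin afterwards.

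Other genes of mitochondrial transport were read from lists alongside the members. Of all genes tested, 35.8% rose and 37.5% fell by day 2, 32.9% and 35.4% by day 6, and 31.9% and 30.1% from day 2 to day 6. All 10 genes of the carrier import route, such as the inner membrane translocase subunit Timm22 and the small chaperones Timm9 and Timm10, rose by day 2, 9 were still higher at day 6 than at day 0, and 9 fell between days 2 and 6. The list's median log2 fold changes were 1.12, 0.60 and -0.70 for these 3 comparisons, where the members had 0.65, 0.39 and -0.14. Timm9 rose by 1.93 ± 0.103 at day 2 (adjusted p = 4.28e-18) and fell by 1.28 ± 0.101 afterwards (3.12e-13). Both subunits of the pyruvate carrier, which belongs to another protein family, rose more than most members by day 2 (Mpc1 3.50 ± 0.140, 1.34e-21, and Mpc2 3.37 ± 0.152, 4.05e-20). Of 7 genes of other inner membrane transporters, 4 rose and 3 fell by day 2, and all 3 outer membrane channels (Vdac1, Vdac2 and Vdac3) rose. Of 5 regulators of mitochondrial biogenesis 4 rose by day 2 and 5 by day 6, with the coactivator Ppargc1b at 3.40 ± 0.259 (6.43e-14) and 2.65 ± 0.252 (2.25e-11). Nothing particular to the carriers is drawn from them.

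The second comparison asked whether the serine at residue 22 of RXRα changes carrier transcripts. No member was called between Rxra SA and Rxra WT at day 0, day 2 or day 6 by edgeR's quasi-likelihood test (0 of 43, against 0% of all genes on each of the 3 days). Nor was any called for the interaction of genotype and time at day 2 or day 6 (0 of 43, against 0% of all genes for each). No member had an unadjusted p under 0.05 in any of the 5 contrasts, and the smallest was 0.0897 (Slc25a18 at day 6). DESeq2 called 0 members in each of them as well. With the replicate number as a block, which pairs the Rxra SA and Rxra WT libraries of a clone and day, 0 members were called in any of the 5.

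The data bounded the differences on single days closely for most members, and the interactions less so. Of the 37 members whose average log2 CPM was 2 or more, approximate 95% intervals lay within 0.5 on either side of 0 for 32 at day 0, 32 at day 2 and 33 at day 6. For the interaction they did so for 24 at day 2 and 23 at day 6. The outermost bounds of the interaction were -1.657 and 2.214 at day 2 and -1.55 and 2.565 at day 6. For Slc25a1 at day 6, Rxra WT libraries held 219 to 299 CPM per kb (median 248, n = 6) and Rxra SA libraries 211 to 279 (median 262). The difference was 0.02 ± 0.095 on the log2 scale, an interval of -0.17 to 0.20. For Slc25a10 on that day the ranges were 173 to 241 and 166 to 259, a difference of 0.00 ± 0.092 with an interval of -0.18 to 0.18. Slc25a4 at day 2 had 265 to 425 in Rxra WT and 274 to 427 in Rxra SA, with an interval of -0.28 to 0.29. The genotypes overlapped in each of these cases. Among these 37 members and the 3 single days, the widest interval was that of Slc25a34 at day 0, -2.475 to 1.497, where no library had more than 3 counts.

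The smallest p-values in each contrast fell on members with modest differences. At day 0 they were those of Slc25a26 (-0.26 ± 0.165), Slc25a35 (-0.29 ± 0.208) and Slc25a47 (0.15 ± 0.111). Day 2 had Slc25a18 (0.40 ± 0.286), Slc25a27 (0.20 ± 0.202) and Slc25a44 (-0.08 ± 0.095). At day 6 they were Slc25a18 (-0.46 ± 0.265), Slc25a2 (0.32 ± 0.203) and Slc25a47 (0.14 ± 0.109). Slc25a18 thus lay on opposite sides of 0 at days 2 and 6, at 5 to 28 counts per library. For the interaction at day 2 the values were 0.53 ± 0.387 for Slc25a18, 0.27 ± 0.228 for Slc25a26 and 0.30 ± 0.282 for Slc25a35. For that at day 6 they were 0.35 ± 0.312 for Slc25a29, 0.32 ± 0.301 for Slc25a2 and 0.23 ± 0.230 for Slc25a26. The edgeR adjusted p was 1 for each of these values.

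**Figure D4:**
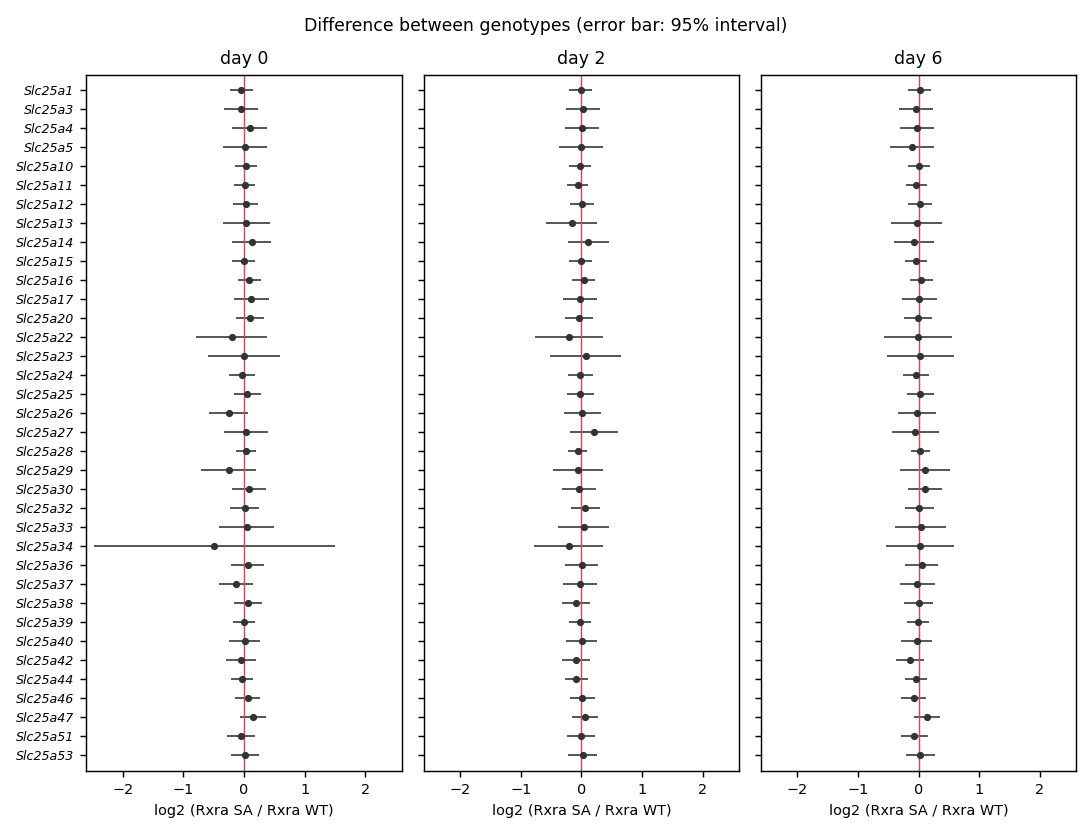
Log2 difference between Rxra SA and Rxra WT at days 0, 2 and 6 for 36 Slc25 genes whose average log2 CPM was 2 or more, with approximate 95% intervals as bars. Most points lie close to 0 on each day and every interval contains 0. The widest of those drawn is that of Slc25a34 at day 0, with its point at -0.489 and 0 to 3 counts per library.

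The third comparison set clone 66 against clone 48, with genotypes averaged. Rxra WT and Rxra SA libraries of the same replicate number were correlated but counted as independent, so the clone p-values may be too small. At day 0, 6 members were higher and 6 lower in clone 66, against 12.6% and 11.1% of all genes. Those 12 calls became 6 without the filter on low counts, and 6 when clone 66 replicate 2 was left out. At day 2, 11 were higher and 9 lower (14.5% and 15.5% of all genes), and at day 6, 9 were higher and 9 lower (13.4% and 12.8%). Scaling by library size alone changed the shares over all genes at day 6 to 10.8% higher and 15.5% lower, with 7 members higher and 9 lower. Calls on all 3 days in the same direction were made for Slc25a13, Slc25a24 and Slc25a46, which were higher in clone 66, and for Slc25a47, Slc25a48 and Slc25a53, which were lower (5.57% and 4.48% of all genes). Called on no day were 16 members, among them Slc25a1, Slc25a3, Slc25a4 and Slc25a11 (37.2% of the members and 53.4% of all genes).

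The aspartate/glutamate carrier Slc25a13 (chr6:6041218-6217173) differed most. Clone 48 held 0.3501 to 0.619 CPM per kb at day 0 (23 to 41 counts), 0.0914 to 0.167 at day 2 (5 to 10 counts) and 0.0753 to 0.311 at day 6 (5 to 19 counts). Clone 66 held 3.41 to 5.64, 2.00 to 2.54 and 1.62 to 2.78 on these days (112 to 471 counts). The clones did not overlap on any day, and clone 66 was higher by 3.43 ± 0.199 (adjusted p = 6.92e-14), 4.18 ± 0.232 (1.79e-14) and 3.74 ± 0.221 (1.46e-13) on the log2 scale. Its paralogue Slc25a12 was the more abundant of the pair in every library, 22.2 to 42.2 times the level of Slc25a13 at day 0 in clone 48 and 2.26 to 3.96 times in clone 66. Within each clone Slc25a13 fell from day 0, by 1.84 ± 0.250 (2.18e-07) and 1.45 ± 0.236 (5.26e-06) in clone 48 and by 1.08 ± 0.175 (3.94e-06) and 1.13 ± 0.175 (2.18e-06) in clone 66.

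Slc25a48 went the other way at low counts, with 3 to 31 counts per library in clone 48 and 0 to 13 in clone 66. The outer membrane member Slc25a46 was higher in clone 66 by 0.80 ± 0.106 (adjusted p = 1.01e-06), 0.61 ± 0.106 (4.2e-05) and 0.70 ± 0.106 (7.63e-06), and its libraries did not overlap between clones on any of the 3 days. Slc25a23 was higher in clone 66 at day 0 (1.17 ± 0.287, 0.00281) and day 2 (1.33 ± 0.278, 0.000466). Slc25a33 was higher at day 6 (0.76 ± 0.216, 0.00894) and Slc25a5 lower at day 2 (-0.52 ± 0.181, 0.0279) and day 6 (-0.57 ± 0.181, 0.0189). Log2 differences between -0.55 and -0.34 were called for Slc25a53 and Slc25a47 on all 3 days and for Slc25a36 at days 0 and 6. Slc25a24 was higher in clone 66 by 0.39 ± 0.105 (0.00629), 0.73 ± 0.108 (4.86e-06) and 0.50 ± 0.106 (0.000611). Its call at day 0 and those of Slc25a47, Slc25a53 and Slc25a36 on at least 1 day were lost when single replicates were left out. At day 6 the calls of Slc25a33 and Slc25a5 were lost when some replicates were left out, with log2 values of 0.57 to 0.75 and -0.56 to -0.54 in those fits.

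**Figure D5:**
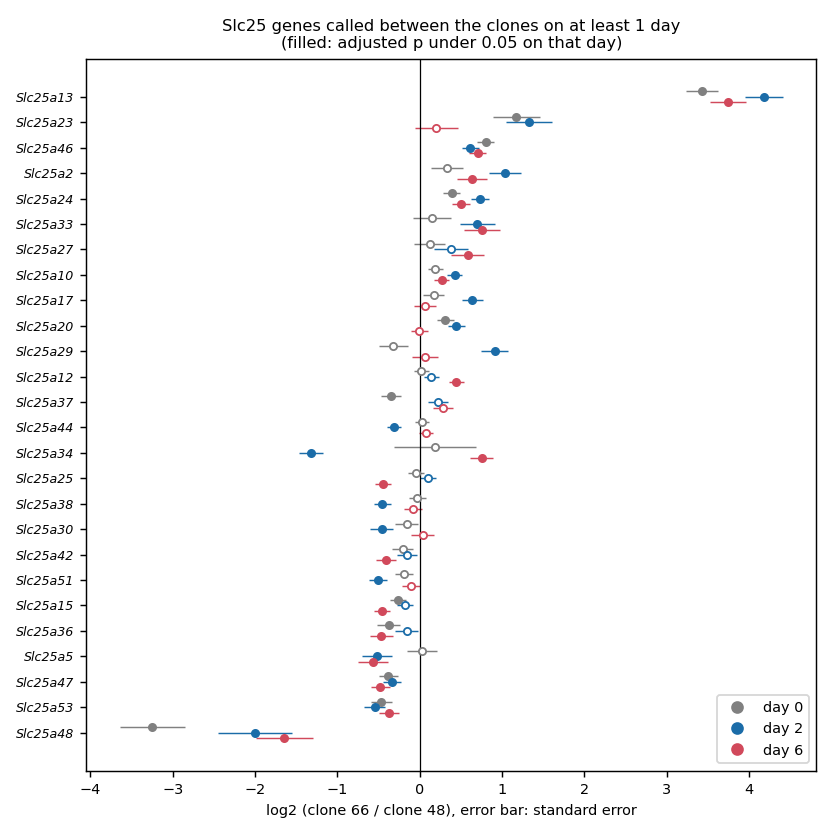
Log2 ratio of clone 66 to clone 48 at days 0 (grey), 2 (blue) and 6 (red) for 26 Slc25 genes called on at least 1 day, with standard errors as bars and filled points where the adjusted p was under 0.05. Slc25a13 lies between 3.43 and 4.18 and Slc25a48 between -3.25 and -1.65, and Slc25a34 crosses 0 between days 2 and 6.

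The change over time itself differed between the clones for 3 members at day 2, all in the direction of clone 66, against 3.61% of all genes higher and 3.23% lower. At day 6 it did so for 1 higher and 1 lower member, against 2.10% and 1.75% of all genes (1.51% and 1.97% when scaled by library size alone). With the replicate number as a block, 10 members were called at day 2 in place of 3 and 6 at day 6 in place of 2. Leaving out replicates gave 2 to 5 members at day 2 (5 without clone 48 replicate 1) and 1 to 3 at day 6 (1 without clone 48 replicate 1, clone 48 replicate 2 or clone 66 replicate 1), and 0 were called at day 6 without the filter on low counts. The basic amino acid carrier Slc25a29 reached 3.16 to 3.65 CPM per kb at day 2 in clone 66 and 1.31 to 2.55 in clone 48. By day 6 the clones overlapped, with 2.90 to 4.61 and 3.11 to 4.03. Mitoferrin 1 (Slc25a37) fell by 0.65 ± 0.122 by day 2 in clone 48 (3.43e-05) and was at -0.07 ± 0.121 in clone 66 (0.651). For Slc25a34 the clones changed places. Clone 48 held 8.51 to 15.5 at day 2 and 10.9 to 17.2 at day 6, whereas clone 66 held 4.10 to 5.56 and 19.1 to 27.6, so that clone 66 was lower by 1.32 ± 0.146 at day 2 (3.71e-08) and higher by 0.75 ± 0.142 at day 6 (0.000176). Whether its step from day 2 to day 6 differed between the clones was not tested. The summed brown adipocyte markers also differed between the clones, with 1204 to 1925 in clone 48 and 825 to 1013 in clone 66 at day 2, and 2707 to 3943 and 1959 to 2745 at day 6. Taken singly, most of the 6 tested markers were not called between the clones. In clone 66, 1 was higher and 1 lower at day 2 (4 not called), and 0 were higher and 1 lower at day 6 (5 not called). Over all genes tested, 14.5% were higher and 15.5% lower at day 2, and 13.4% and 12.8% at day 6. The part of the markers in the carrier differences was not tested.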

How the data were processed

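Per the labels, total RNA libraries (TruSeq stranded) were aligned by the authors with STAR 2.7.0d to GRCm38 with GENCODE M21, and the deposited values are raw read-pair counts per gene from featureCounts 1.6.2, summed over exons without regard to strand and without pairs that matched several places or genes. Library totals ranged from 11351078 to 24349263 counts, and low-count genes are imprecise accordingly. The submitters' notes also name edgeR 3.24.3.

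From these counts, edgeR 4.0.16 (R 4.3.3) was used with its filter on low counts, TMM scaling and a quasi-likelihood fit of genotype by day with clone as a covariate. Clone contrasts used a fit with all 12 groups. P-values were adjusted by Benjamini-Hochberg over 16723 genes. The 95% intervals are 1.96 of the derived standard errors either side, and are approximate. Levels are TMM-scaled CPM per kb. The fit was tested on simulated data. None of the 36 pairs of libraries within a group agreed within sampling noise.

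Replicate numbers paired Rxra WT and Rxra SA libraries of a clone and day: deviations from group means correlated above 0.1 in 18 of 18 pairs (mean 0.71, over 9381 genes). Same-numbered libraries of a clone and genotype also correlated between days on average. The means over 12 pairs were 0.373 for days 0 and 2, 0.316 for days 0 and 6, and 0.477 for days 2 and 6. The main fits held no term for replicate number. Clone contrasts average the genotypes and treat paired libraries as independent, so their standard errors and p-values may be too small.

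The members, gene lists and tests were chosen with earlier results of these data known. Genes named in full were, for each day comparison, the 5 largest changes in each direction among called members whose average log2 CPM was 2 or more, and for clones the 3 largest; for genotype the 3 smallest p-values, and the carriers of adenine nucleotides and phosphate, di- and tricarboxylates and acylcarnitine were named by role. Other members are described with their role group. The values of 1 member are not reported here, though the counts include it. Alternatives were RLE and library-size scaling, other filters, DESeq2 1.42.0, other designs including a replicate block, and leaving out replicates.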

Additional observations from a re-analysis of the deposited data

Results flagged for a closer look

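The change over time differed between clone 66 and clone 48 for the members given here, by the interaction term of edgeR's quasi-likelihood test. For Slc25a29 the difference of log2 fold changes (clone 66 minus clone 48) was 1.23 ± 0.241 at day 2 (adjusted p = 0.00114). For Slc25a37 it was 0.58 ± 0.172 at day 2 (0.0362) and 0.63 ± 0.173 at day 6 (0.0324). Without a filter on low counts the calls of Slc25a37 were lost on both days. Clone and pool cannot be told apart here.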

How the results depend on the processing

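No called value changed direction under the alternatives run. Of 2049 alternative values for 129 day results, 1985 kept their side of the threshold, 45 lost a call and 19 gained one. Of 770 values for 55 clone results, 681 kept it and 89 lost a call, and all 240 genotype values kept it. With no filter on low counts, 6 members were called between clones at day 0 in place of 12, and 0 in place of 2 for the difference in change at day 6. Leaving out replicates gave 6 to 11 members at day 0 (6 without clone 66 replicate 2), 2 to 5 for the difference in change at day 2 and 1 to 3 at day 6. With the replicate block, 10 members were called for the difference in change at day 2 in place of 3, and 6 at day 6 in place of 2. The block changed no genotype count (0 throughout) and gave 29 higher and 12 lower members at day 2, 24 and 11 at day 6, and 13 and 21 from day 2 to day 6. A block cannot be fitted to the clone differences at a single day, since it lies within a clone. The cause of these shifts was not tested. Slc25a45 had at most 22 counts in any library and Slc25a48 at most 31, so their levels carry a large counting error.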
